A study of Sus scrofa with 6 samples.

Results

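Interleukins and their receptor chains were examined in the abdominal aorta of pigs kept on normal chow (NC) or on a diet rich in fat, cholesterol and fructose (HFCF). The members were the 63 of 30477 listed genes whose symbol starts with IL and a digit, with IL34, IL1A, IL1B, IL1RN and IL18 left out by rule. By symbol they comprised 30 ligands, 31 receptor chains and 2 genes that are neither. All animals were male Wuzhishan miniature pigs, 3 per diet, fed for 6 months, with 1 mRNA library per pig from whole aortic tissue. The labels give an age of 3 to 4 months, whereas the study's methods give older animals, and no genetic or drug treatment is recorded for either diet. Values are FPKM, fragments counted per length of exon and scaled to the mapped reads of the library, a level that can be set side by side between genes.

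Interleukins are small secreted proteins by which immune and tissue cells instruct each other. Most bind a private receptor chain that then pairs with a chain shared within a family. Shared chains are the common gamma chain for IL-7 and IL-15 and gp130 (IL6ST) for IL-6 and IL-27. IL10RB serves part of the IL-10 family, and IL1RAP serves IL-33. The paired chains of most families activate Janus kinases and STAT factors, while those of the IL-1 family use MYD88, IRAK and TRAF adaptors. In the artery wall, resident smooth muscle and endothelial cells and recruited leukocytes can make and receive these signals.

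Many of the ligands had no signal. The files write 0.0001 FPKM in place of 0, and 12 of the 30 ligands (40%) stood at that floor in all 6 libraries. These were IL2, IL4, IL9 and IL21 of the gamma chain family, IL12B, IL17A and IL17F, IL19, IL22, IL24 and IL26 of the IL-10 family, and the type III interferon IL28B. Of the 31 receptor chains, 2 (6.45%) were at the floor throughout, IL1RAPL1 and the soluble decoy IL22RA2. For comparison, 28.4% of all listed genes and 22.2% of the members were at the floor in all 6 libraries. The files give no read counts, so the depth is unknown and a value at the floor sets no upper limit on a transcript. A further 18 members, 7 ligands and 11 receptor chains, were at the floor in some libraries, and 31 in none.

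The test used limma on log2(FPKM + 0.1), fitted to the 15384 genes with a mean of at least 0.1 FPKM over the 6 libraries, with Benjamini-Hochberg adjustment over all of them. It covered 37 members: 12 ligands, 23 receptor chains and the 2 others. Another 12 members had some signal but too little to be tested. Of these the highest single value was 0.384 FPKM, for the decoy receptor IL1R2 in HFCF pig 1. The T helper ligands IL5 and IL13 were at the floor in 4 of 6 libraries each, as were IL23A and IL11, while IL12A was at it in 3 and IL20 in 5. Among the tested members, 9 had an NC mean under 0.1 FPKM and so entered through the HFCF libraries, which bears on any count of higher members. With 3 pigs per diet, p-values weigh a difference in means against the spread among these 6 animals. For each gene that spread is drawn toward a trend over all genes tested.

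Of the tested members, 12 passed an adjusted p of 0.05, all of them higher in HFCF aorta, against 22.8% of all tested genes called higher, 6.16% called lower and 28.9% called in either direction. Ligands accounted for 6 of 12 tested (50.0%) and receptor chains for 6 of 23 (26.1%), the latter a share near that of all genes. The filter bears on both shares, as 4 of the 12 called members had an NC mean under 0.1 FPKM. These were the ligands IL10 and IL27 and the receptor chains IL7R and IL12RB1, which passed the filter through the HFCF libraries. The ligands called were IL33, IL10, IL27, IL15, IL16 and IL17C, and the receptor chains were IL6ST, IL7R, IL12RB1, IL10RA, IL27RA and IL17RB. The thresholds named in the study's methods, a ratio above 2 or below 0.5 with an unadjusted p under 0.05, took in 7 ligands and 5 receptor chains, against 25.5% of all tested genes. The median log2 fold change was 1.12 over the tested ligands and 0.47 over the tested receptor chains, beside 0.32 over all genes tested. That positive median of all genes shrank under other scalings, to -0.003 with median-ratio scaling, -0.075 with quantile normalization and 0.089 after rescaling to a fixed total per library (TPM). By limma 0 members were called lower and 1, IL17RA, was lower at an unadjusted p under 0.05. With the 3 other scalings the receptor calls split 3 higher and 2 lower, 4 higher and 1 lower, and 3 higher and 1 lower, in that order. Over all 15384 genes the calls under those scalings were 2032 higher and 1968 lower, 1748 higher and 1782 lower, and 2229 higher and 1527 lower, beside 3505 higher and 948 lower without them.

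**Figure D1:**
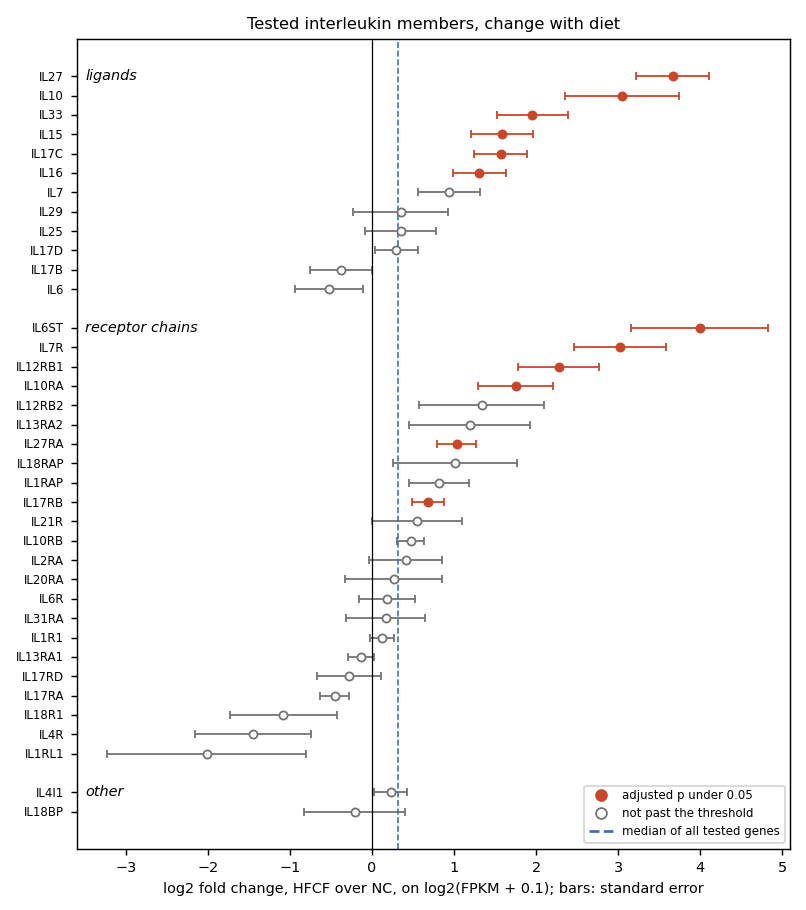
Log2 fold change (HFCF over NC, on log2(FPKM + 0.1)) of the 37 tested members, with bars for 1 standard error, filled symbols for an adjusted p under 0.05 and a dashed line at the median of all tested genes, 0.32. Members called higher run from 0.68 for IL17RB to 3.99 for IL6ST, and no member was called lower, although IL17RA was under each of the 3 other scalings.

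In every one of the 12 called members the lowest HFCF pig lay above the highest NC pig, but the calls rest on these same values. Over all 37 tested members the groups did not overlap in 14 with HFCF higher and in 2 with HFCF lower, beside 48.2% of all tested genes without overlap, 36.1% with HFCF higher and 12.1% with HFCF lower. HFCF pig 1 held the highest value for 11 of the 12 called members (91.7%), the exception being IL6ST. That pig was highest for 57.7% of the 3505 genes called higher. The summed level of 12 macrophage markers was also highest in that pig, running from 35.6 to 39.7 FPKM in NC and from 449.1 to 1094 FPKM in HFCF, with 11 of the 12 markers called higher. The 7 smooth muscle markers had lower sums in HFCF, from 15169–21395 to 7664–12406 FPKM, with 5 of 7 called lower. In whole tissue, a change in the number of cells of a type and a change in RNA per cell cannot be told apart.

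Leukocyte lists other than macrophage had higher totals in HFCF as well, although few of their genes were called. The 10 T cell markers summed to 2.23–2.75 FPKM in NC and 4.09–21.5 FPKM in HFCF, with CD2 and CD8A called of 9 tested. The 5 natural killer markers went from 1.78–2.42 to 29.5–67.3 FPKM, mostly through NKG7. Neutrophil markers went from 1.56–3.00 to 6.37–84.0 FPKM, with CSF3R called, and the defining granule gene MPO under 0.1 FPKM in every library. B and plasma cell markers went from 6.74–11.2 to 35.6–47.5 FPKM, with CD79A called, and mast cell markers from 1.92–4.72 to 5.23–17.9 FPKM. Endothelial markers spanned 83.2–170.3 FPKM in NC and 76.5–197.2 FPKM in HFCF, and fibroblast markers 1241–2656 and 1607–2814 FPKM. No gene of these lists was at the floor in all 6 libraries, and the part of any cell type in the interleukin values was not tested.

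**Figure D2:**
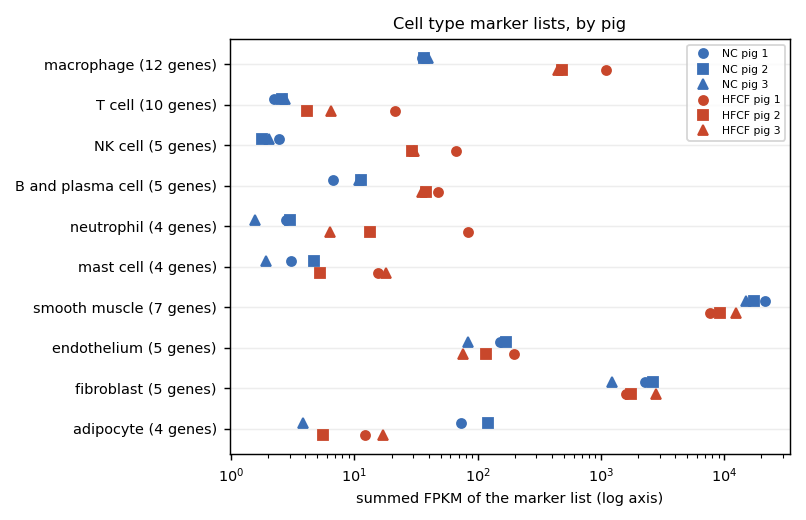
Summed FPKM of each fixed cell type marker list in each pig, on a log axis, with NC pigs in blue and HFCF pigs in red. Macrophage sums lie at 35.6–39.7 FPKM in NC and 449.1–1094 FPKM in HFCF, with HFCF pig 1 highest, and smooth muscle sums lie lower in HFCF.

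Among the ligands of the IL-1 family, IL33, an alarmin kept in the nucleus of barrier and stromal cells and released on damage, was the ligand tested. NC pigs had 2.41, 1.95 and 0.996 FPKM and HFCF pigs 11.7, 5.36 and 4.97 FPKM. The groups did not overlap, and HFCF pig 1 stood above the other pigs. Its log2 fold change was 1.95 (SE 0.43, adjusted p = 0.0167 with limma), and the call held in all 15 alternatives tried, with log2 fold changes from 1.49 to 2.20.

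The private receptor chain of IL-33, IL1RL1 (ST2), was not called. It read 23.9, 35.8 and 1.09 FPKM in NC and 4.37, 1.65 and 1.87 FPKM in HFCF. NC pigs 1 and 2 were far above all the others and NC pig 3 was below every HFCF pig, so the groups overlapped. The log2 fold change was -2.02 (SE 1.22, adjusted p = 0.250 with limma). It was -3.56 (adjusted p = 0.00822) without NC pig 3 and -1.10 (adjusted p = 0.562) without NC pig 2. The sum of 4 adipocyte markers was 73.3, 120.9 and 3.80 FPKM in NC and 12.3, 5.58 and 17.1 FPKM in HFCF, so NC pigs 1 and 2 were high and NC pig 3 low for both, and the part of fat tissue in IL1RL1 was not tested. Within each pig, IL33 over IL1RL1 was 0.101, 0.0544 and 0.915 in NC and 2.69, 3.25 and 2.65 in HFCF.

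None of the 5 tested receptor chains of the IL-1 family was called by limma, nor did any have an unadjusted p under 0.05. IL1R1, the signalling receptor for IL-1, was at 17.6, 17.7 and 14.5 FPKM in NC and 17.4, 19.4 and 17.1 FPKM in HFCF, a log2 fold change of 0.12 with a 95% interval from -0.23 to 0.46 (adjusted p = 0.584 with limma). It turned to -0.24 with median-ratio scaling, -0.05 with quantile normalization and -0.14 with TPM. IL1RAP, the accessory chain shared by IL1R1 and IL1RL1, read 0.444, 0.622 and 0.386 FPKM in NC and 0.960, 0.589 and 1.33 FPKM in HFCF (log2 fold change 0.82, adjusted p = 0.133). HFCF pig 2 lay inside the NC range. In the RefSeq annotation of Sscrofa11.1, IL1R2, IL1R1, IL1RL2, IL1RL1, IL18R1 and IL18RAP follow each other as adjacent protein-coding genes. IL1R1 and IL1RL1, neighbours but for IL1RL2, thus had unlike patterns over the 6 pigs.

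IL10, an anti-inflammatory cytokine of macrophages and regulatory lymphocytes, was near the limit of detection in NC aorta. NC pigs had 0.0365, 0.0326 and 0.0256 FPKM and HFCF pigs 2.59, 1.19 and 0.273 FPKM. Every HFCF pig was above every NC pig, and the HFCF pigs differed widely among themselves. Expressed in units of the smallest nonzero NC value after correction for relative depth, the NC libraries held 1.04, 1.01 and 1 units and the HFCF libraries 75.9, 35.5 and 8.30. The number of reads in 1 unit is unknown, so the size of the change depends on the pseudocount. On the log2 scale the difference was 3.05 (SE 0.69, adjusted p = 0.0183 with limma) and ran from 1.06 to 4.54 over the alternatives. The call was lost with a pseudocount of 1 and without NC pig 1 (adjusted p = 0.0653), NC pig 2 (0.0559), NC pig 3 (0.0515) or HFCF pig 2 (0.0569).

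IL10RA, the private chain of the IL-10 receptor found mainly on leukocytes, read 4.62, 9.44 and 10.8 FPKM in NC and 49.8, 20.7 and 17.9 FPKM in HFCF. The groups did not overlap, with HFCF pig 1 highest and NC pig 1 lowest. A log2 fold change of 1.75 (SE 0.46) came with an adjusted p of 0.03003 in limma. The call was not stable: without NC pig 1 the adjusted p was 0.0980, without NC pig 2 0.0642, without HFCF pig 1 0.0601 and without HFCF pig 2 0.0545. It was also lost with no filter, with median-ratio scaling and with TPM.

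IL10RB, the chain shared by part of the IL-10 family and the type III interferons, was not called. It stood at 7.08, 7.05 and 8.29 FPKM in NC and 12.03, 9.58 and 9.74 FPKM in HFCF, without overlap, for a log2 fold change of 0.47 (SE 0.16, adjusted p = 0.0689 with limma). As a ratio within each pig, IL10RA over IL10RB was 0.652, 1.34 and 1.31 in NC and 4.14, 2.16 and 1.84 in HFCF, so the private chain exceeded the shared one in every HFCF pig and in NC pigs 2 and 3. IL29, the type III interferon with signal, was low at 0.1601, 0 and 0.194 FPKM in NC and 0.085, 0.1 and 0.328 FPKM in HFCF. IFNLR1, which pairs with IL10RB to receive it and bears no IL symbol, fell by 1.35 on the log2 scale (adjusted p = 0.00808 with limma).

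IL27, a subunit made by activated antigen-presenting cells, had the largest log2 fold change among the ligands with 0.1 FPKM added, although IL10 had the larger ratio of group means (42.8 against 35.4). NC pigs had 0.0547, 0.0495 and 0.0791 FPKM and HFCF pigs 3.71, 1.28 and 1.497 FPKM. No NC pig came near the HFCF range. Counted again in units of the smallest NC value, the libraries held 1.01, 1 and 2.01 against 70.5, 24.9 and 29.6. Its log2 fold change was 3.66 (SE 0.44, adjusted p = 0.00243 with limma), called in all 15 alternatives and between 1.497 and 4.79 in them. EBI3, with which IL27 forms the active cytokine, read 0.401, 0.852 and 0.674 FPKM in NC and 4.85, 1.92 and 2.88 FPKM in HFCF (log2 fold change 2.11, adjusted p = 0.0105), and was also called in all 15.

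Both chains of the IL-27 receptor were called. IL27RA, its private chain, read 3.78, 2.92 and 3.21 FPKM in NC and 9.21, 6.16 and 5.57 FPKM in HFCF, again without overlap. A log2 fold change of 1.03 (SE 0.24) had an adjusted p of 0.0191 in limma. It was no longer called under the 3 other scalings, nor without NC pig 2 (adjusted p = 0.0639) or NC pig 3 (0.0513).

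IL6ST (gp130), the signal transducer shared by the IL-6 family and IL-27, had the highest fold change of all members on log2(FPKM + 0.1). As a ratio of group means it was 9.30, below IL12RB1 (47.3), IL10 (42.8), IL27 (35.4) and IL7R (22.8), whose NC means were under 0.1 FPKM, and with a pseudocount of 0.01 or with TPM it was not the highest either. It read 5.04, 0.492 and 0.397 FPKM in NC and 14.8, 19.0 and 21.3 FPKM in HFCF, means of 1.98 ± 2.65 and 18.4 ± 3.27 FPKM (SD, n = 3). NC pig 1 was about an order of magnitude above the other NC pigs but still below every HFCF pig. The log2 fold change of 3.99 (SE 0.84, adjusted p = 0.0139 with limma) was called in all 15 alternatives. It was 5.07 without NC pig 1, and the highest adjusted p was 0.0499, without NC pig 2.

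IL6R, the private chain for IL-6, was not called. Its values were 1.74, 2.45 and 2.63 FPKM in NC and 1.62, 3.82 and 2.68 FPKM in HFCF, overlapping, with a log2 fold change of 0.18 and a 95% interval from -0.63 to 0.99 (adjusted p = 0.720 with limma). The sign turned under median-ratio scaling, quantile normalization and TPM and without HFCF pig 2. IL6ST over IL6R within a pig was 2.89, 0.201 and 0.151 in NC and 9.17, 4.98 and 7.94 in HFCF. IL6 itself read 6.43, 9.03 and 6.51 FPKM in NC and 9.18, 2.74 and 4.88 FPKM in HFCF, with HFCF pig 1 the highest of all 6 and the other HFCF pigs the lowest. Its log2 fold change was -0.53 (SE 0.41, adjusted p = 0.371). IL31RA, the neighbour of IL6ST in the annotation and a partner of the oncostatin M receptor, stayed between 0.0627 and 0.329 FPKM.

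**Figure D3:**
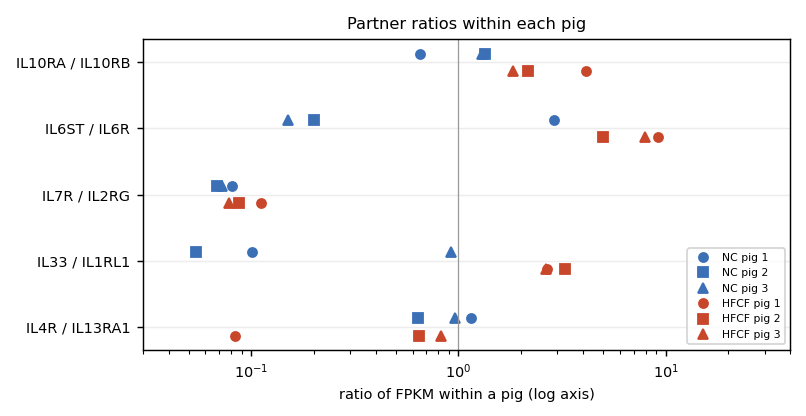
Ratio of FPKM values of paired genes within each pig, on a log axis with a line at a ratio of 1. IL6ST over IL6R is 0.151–2.89 in NC and 4.98–9.17 in HFCF, whereas IL7R over IL2RG is 0.0683–0.0808 in NC and 0.0782–0.111 in HFCF.

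In the gamma chain family, IL15, which sustains natural killer and memory T cells, read 0.306, 0.303 and 0.391 FPKM in NC and 2.01, 1.03 and 0.814 FPKM in HFCF. The groups were apart. Its log2 fold change was 1.59 (SE 0.38, adjusted p = 0.0210 with limma), lost with quantile normalization and without NC pig 1 (adjusted p = 0.0730), NC pig 2 (0.0651) or HFCF pig 2 (0.0503).

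IL7R, the private chain for IL-7 carried by lymphocytes, was at 0.078, 0.047 and 0.085 FPKM in NC and 3.24, 0.835 and 0.732 FPKM in HFCF. HFCF pig 1 was well above the other HFCF pigs, yet the log2 fold change of 3.02 (SE 0.56, adjusted p = 0.00965 with limma) remained called in all 14 alternatives in which it could be tested. Without HFCF pig 1 it was 2.38. IL7, its ligand, read 0.0375, 0.0671 and 0.0438 FPKM in NC and 0.257, 0.163 and 0.146 FPKM in HFCF. These values did not overlap, but the log2 fold change of 0.94 was not called (adjusted p = 0.101).

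Some chains of this family are listed by gene ID without a symbol and are no members by the rule. They were looked up through the ID and symbol table after their values had been seen. IL2RG, the common gamma chain (ENSSSCG00000012397), read 0.967, 0.694 and 1.18 FPKM in NC and 29.1, 9.53 and 9.36 FPKM in HFCF, a log2 fold change of 3.75 (adjusted p = 0.00255 with limma). IL15RA, which presents IL-15, read 0.380, 0.273 and 0.455 FPKM in NC and 3.11, 0.932 and 2.30 FPKM in HFCF (log2 fold change 2.11, adjusted p = 0.0156), with the call lost without NC pig 1 (0.0559) or NC pig 2 (0.0545) and with quantile normalization. IL2RB, the signalling chain for IL-2 and IL-15, read 0.508, 0.605 and 0.356 FPKM in NC and 4.99, 0.603 and 1.14 FPKM in HFCF. Its high value was in HFCF pig 1, and the log2 fold change of 1.5 was not called (adjusted p = 0.146). IL11RA, a gp130 partner found by the same lookup, read 20.6, 19.5 and 23.0 FPKM in NC and 12.2, 22.9 and 23.7 FPKM in HFCF, with HFCF pig 1 lowest (log2 fold change -0.16, adjusted p = 0.682). A ligand gene described as interleukin 15-like (ENSSSCG00000048091) is also listed by ID alone. It read 29.6, 7.54 and 9.82 FPKM in NC and 28.3, 6.02 and 13.3 FPKM in HFCF. Those levels lay above the IL15 values and overlapped between diets (log2 fold change 0.017, adjusted p = 0.986 with limma). How this gene relates to IL15 was not tested. The lookup also gave IL9R (log2 fold change 0.67, adjusted p = 0.288 with limma) and IL31 (-0.20, adjusted p = 0.858), neither of them called. IL17REL, found in the same way, was too low to be tested. Within each pig, IL7R over IL2RG was 0.0808, 0.0683 and 0.0722 in NC and 0.111, 0.0876 and 0.0782 in HFCF, a narrow range beside the 0.694 to 29.1 FPKM that IL2RG itself spanned.

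The receptor chains for IL-4 and IL-13 were the most abundant members in NC aorta, although IL4 was at the floor in all 6 libraries and IL13 in 4. IL13RA1, shared by both cytokines outside the lymphoid lineages, read 36.6, 42.3 and 38.6 FPKM in NC and 41.8, 34.7 and 31.0 FPKM in HFCF, with a log2 fold change of -0.14 and a 95% interval from -0.50 to 0.23 (adjusted p = 0.544 with limma). With median-ratio scaling it was -0.49 (adjusted p = 0.0465).

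IL4R, the chain that binds IL-4, read 42.1, 27.0 and 37.2 FPKM in NC and 3.50, 22.4 and 25.6 FPKM in HFCF. Each HFCF pig was below the NC range, but HFCF pig 1 stood far under the rest, and the log2 fold change of -1.45 (SE 0.71) was not called (adjusted p = 0.166 with limma). Without HFCF pig 1 it was -0.54 (adjusted p = 0.128). The ratio of IL4R to IL13RA1 was 1.15, 0.639 and 0.966 in NC and 0.0838, 0.646 and 0.827 in HFCF, with the low value again in HFCF pig 1 alone.

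IL12RB1, the chain shared by the receptors of IL-12 and IL-23, read 0.0183, 0 and 0.0135 FPKM in NC and 0.928, 0.244 and 0.330 FPKM in HFCF. All NC pigs were at or near 0. With 0.1 FPKM added, the log2 fold change was 2.27 (SE 0.49, adjusted p = 0.0159 with limma). It was not called with a pseudocount of 1, nor without NC pig 1 (adjusted p = 0.0528) or NC pig 2 (0.0520). The ligand subunits of this family were at the floor or untested, apart from IL27 and its partner EBI3.

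**Figure D4:**
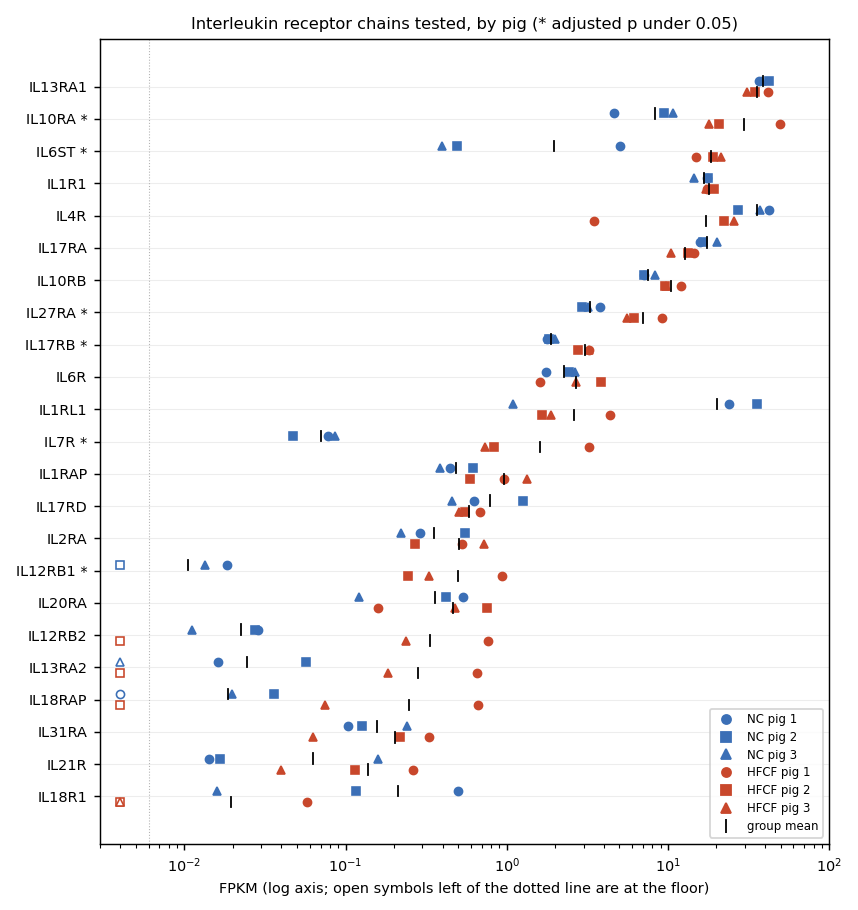
FPKM of the 23 tested receptor chains in each pig, on a log axis, with open symbols left of the dotted line for values at the floor, black bars for group means and asterisks for an adjusted p under 0.05. IL6ST, IL7R and IL12RB1 separate most widely, while IL13RA1 and IL1R1, at 31.0–42.3 and 14.5–19.4 FPKM, overlap between diets.

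In the IL-17 family, 1 ligand and 1 receptor chain were called higher. IL17C, made by epithelial and stromal cells, read 0.357, 0.537 and 0.593 FPKM in NC and 2.32, 1.38 and 1.37 FPKM in HFCF, without overlap. Its log2 fold change was 1.57 (SE 0.32, adjusted p = 0.0133 with limma), lost with quantile normalization. IL17RB, the receptor chain for IL17B and IL25, read 1.79, 1.83 and 1.996 FPKM in NC and 3.22, 2.76 and 3.22 FPKM in HFCF. The groups were tight and apart, with a log2 fold change of 0.68 (SE 0.19, adjusted p = 0.0368). That call was lost on leaving out any 1 of the 6 pigs, with no filter and under all 3 other scalings, with log2 fold changes from 0.12 to 0.75 and adjusted p-values up to 0.676.

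IL17B was the ligand with the highest level. It read 16.8, 17.7 and 44.0 FPKM in NC and 15.8, 16.0 and 23.3 FPKM in HFCF, overlapping, with NC pig 3 standing out (log2 fold change -0.38, adjusted p = 0.490 with limma, and 0.07 without that pig). IL17D, a less studied ligand of the family, read 7.87, 11.1 and 5.72 FPKM in NC and 8.79, 9.10 and 11.6 FPKM in HFCF (log2 fold change 0.29, adjusted p = 0.434). IL25, which acts through IL17RB, read 0.864, 1.42 and 0.488 FPKM in NC and 1.51, 1.24 and 0.725 FPKM in HFCF (log2 fold change 0.35, adjusted p = 0.579). These ligands overlapped between diets.

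IL17RA, the chain used by most IL-17 receptors, read 15.9, 16.5 and 20.1 FPKM in NC and 14.4, 13.3 and 10.5 FPKM in HFCF. Here the values of the HFCF pigs were all below those of NC. A log2 fold change of -0.46 (SE 0.18) missed the threshold (adjusted p = 0.0961 with limma), but it was called lower with median-ratio scaling (-0.81, adjusted p = 0.0149), quantile normalization (-0.66, adjusted p = 0.0347) and TPM (-0.72, adjusted p = 0.0305).

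IL16, a T cell attractant that binds CD4 and belongs to none of these families, read 0.805, 1.26 and 0.884 FPKM in NC and 3.78, 2.28 and 1.89 FPKM in HFCF. The groups did not overlap, and the log2 fold change was 1.31 (SE 0.33, adjusted p = 0.0247 with limma). It lost the call without NC pig 1 (adjusted p = 0.0871), NC pig 3 (0.0661), HFCF pig 1 (0.0554) or HFCF pig 2 (0.0591), and with median-ratio scaling and quantile normalization.

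**Figure D5:**
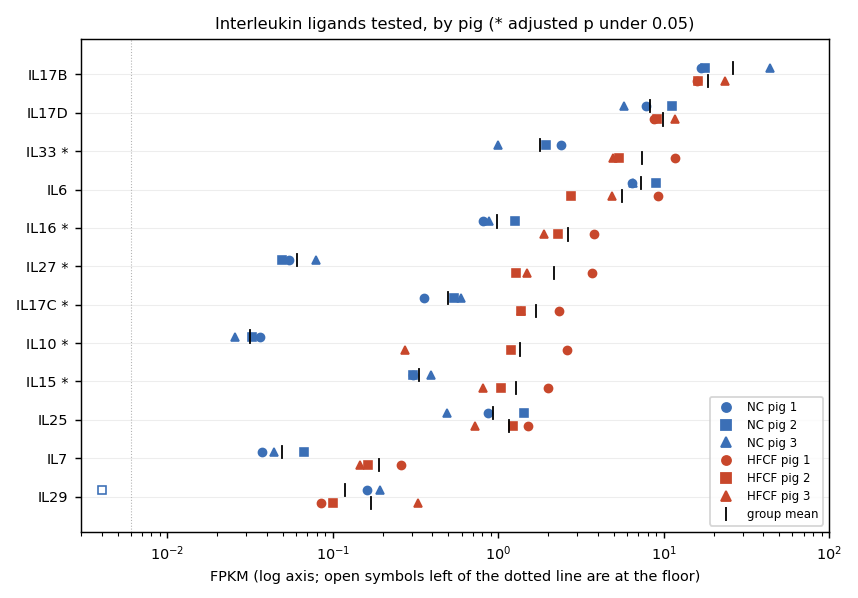
FPKM of the 12 tested ligands in each pig, on a log axis, with open symbols left of the dotted line for values at the floor, black bars for group means and asterisks for an adjusted p under 0.05. IL27 and IL10 lie under 0.1 FPKM in all NC pigs and at 0.273 FPKM or more in all HFCF pigs, while IL17B and IL17D overlap.

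The remaining genes that carry an IL symbol but are neither ligand nor receptor were not called. IL18BP, a soluble binder of IL-18, read 3.46, 6.37 and 4.13 FPKM in NC and 3.93, 9.66 and 1.51 FPKM in HFCF (log2 fold change -0.21, adjusted p = 0.821 with limma). Its gene ID carries the symbol RNF121 in the ID and symbol table, so the identity of these values is uncertain. IL4I1, a secreted amino acid oxidase of myeloid and B cells, read 6.07, 5.05 and 5.82 FPKM in NC and 8.26, 6.32 and 5.49 FPKM in HFCF (log2 fold change 0.22, adjusted p = 0.433). The 12 uncalled members under 1 FPKM in both groups, such as IL12RB2, IL18R1 and IL2RA, had log2 fold changes from -1.08 to 1.34 and adjusted p-values from 0.101 to 0.819.

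Ordered by mean level in NC aorta, the members led with IL13RA1 at 39.1 ± 2.88 FPKM, IL4R at 35.5 ± 7.71, IL17B at 26.2 ± 15.5, IL1RL1 at 20.3 ± 17.7, IL17RA at 17.5 ± 2.30 and IL1R1 at 16.6 ± 1.81 FPKM (SD, n = 3). Each neighbouring pair in that order differed by less than the larger of its 2 SDs. In HFCF aorta the order was IL13RA1 at 35.8 ± 5.49, IL10RA at 29.5 ± 17.7, IL17B at 18.4 ± 4.27, IL6ST at 18.4 ± 3.27, IL1R1 at 18.0 ± 1.23, IL4R at 17.2 ± 11.95 and IL17RA at 12.7 ± 2.02 FPKM. As in NC, each neighbouring pair differed by less than the larger of its 2 SDs. IL10RA and IL6ST were the receptor chains that entered this upper range. The IL10RA mean combined 49.8 FPKM in HFCF pig 1 with 20.7 and 17.9 FPKM in the other HFCF pigs.

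Genes of the same pathways without an IL symbol were read from a list of 43, of which 38 were found by name and 37 tested. Of these, 14 were called higher and 2 lower, with a median log2 fold change of 0.45, beside 22.8% of all tested genes called higher, 6.16% called lower and a median of 0.32. The split changed to 9 higher and 5 lower with median-ratio scaling, 8 and 2 with quantile normalization, and 9 and 2 with TPM, while over all genes it became 2032 and 1968, 1748 and 1782, and 2229 and 1527. TSLP, CLCF1, CRLF2, CSF2RA and SOCS2 were not analysed here.

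Ligands that signal through gp130 went in both directions. OSM (oncostatin M), a macrophage and neutrophil cytokine, read 1.83, 3.203 and 2.85 FPKM in NC and 10.8, 11.0 and 12.2 FPKM in HFCF (log2 fold change 2.10, adjusted p = 0.00189 with limma). CTF1 (cardiotrophin 1), a muscle cytokine, fell from 11.5, 20.4 and 12.9 FPKM to 2.46, 2.98 and 3.68 FPKM (log2 fold change -2.23, adjusted p = 0.00234). Both groups were fully apart for each gene, and both calls held in all 15 alternatives.

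JAK3, the Janus kinase that docks on the common gamma chain, was the kinase called. It read 0.761, 0.873 and 0.759 FPKM in NC and 18.0, 7.44 and 9.17 FPKM in HFCF (log2 fold change 3.59, adjusted p = 0.00116 with limma). JAK1, JAK2 and TYK2 were not called. CSF2RB, the common beta chain of the IL-3 and IL-5 receptors, was higher by 2.87 on the log2 scale (adjusted p = 0.0148), which lost the call without NC pig 1 (0.0649).

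Among the STAT factors, STAT3, which IL-6 and IL-10 use, differed by -0.16 on the log2 scale (adjusted p = 0.417 with limma), and STAT6, which IL-4 and IL-13 use, by -0.14 (adjusted p = 0.439). Of the SOCS feedback inhibitors, SOCS1, SOCS4, SOCS5 and SOCS6 were called higher, while SOCS3 had -0.42 (adjusted p = 0.388). SOCS1 lost its call without NC pig 2 (0.0559) or HFCF pig 2 (0.0534) and with quantile normalization (0.106). SOCS6 lost it on leaving out any pig but HFCF pig 3, with adjusted p-values from 0.0531 to 0.0824, and under all 3 other scalings, with adjusted p-values up to 0.288 and log2 fold changes down to 0.32.

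In the adaptor branch of the IL-1 receptors, IRAK2 was higher by 2.28 on the log2 scale (adjusted p = 0.00159 with limma) and IRAK4 by 1.34 (adjusted p = 0.00996), and each stayed called without any 1 pig, but IRAK4 lost its call with quantile normalization (0.0620). MYD88 was called at 0.71 (adjusted p = 0.0373) but not without NC pig 1 (0.0956), NC pig 2 (0.102), HFCF pig 1 (0.0891), HFCF pig 2 (0.0646) or HFCF pig 3 (0.0711), nor with no filter, without a variance trend or under the 3 other scalings. STAT2, a factor of the interferon pathway, was called as well, but not without NC pig 1 (0.111), NC pig 2 (0.0992), HFCF pig 1 (0.0882) or HFCF pig 3 (0.0699), nor with no filter or under the 3 other scalings. TRAF6, TOLLIP, IRAK1, IRAK3 and TRAF3IP2 were not called.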

How the data were processed

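The authors extracted RNA from abdominal aorta, prepared mRNA libraries and sequenced them as paired reads. Per the labels and the study's methods, reads were trimmed with cutadapt 1.9, checked with FastQC, aligned with HISAT2 and assembled with StringTie. The authors deposited FPKM values for 30477 genes in 6 libraries, with 0.0001 in place of 0. Counts were not used here, the depth is unknown, and strand handling is not given in the sources used here, so overlapping genes may share reads. The methods name Sscrofa 10.2, and neighbours are given by name only from RefSeq for Sscrofa11.1, in which all 63 symbols were found.

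Values of 0.0001 FPKM or less were read as 0. Genes with a mean of at least 0.1 FPKM were fitted with limma 3.58.1 (R 4.3.3) on log2(FPKM + 0.1), with diet as the factor, a variance trend and two-sided Benjamini-Hochberg adjusted p-values. With the pseudocount, low genes change by less on this scale than they do as a ratio. The script was tested on simulated data. An exact permutation test of 3 pigs against 3 cannot go below p = 0.1 and was not used. Smallest value steps put relative depth between 1 and 1.37.

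Members were named where called or where a group mean reached 1 FPKM. Members, marker lists and pathway lists were chosen with earlier results of these data known. IL29, IL7, IL1RAP, IL31RA and the low members were named beside their partners after their values were seen. Alternatives were the pseudocount, the filter, 3 scalings, no variance trend, the study's thresholds, a replicate block and leaving out each pig. Results for some genes of the pathway list are not reported here.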

Additional observations from a re-analysis of the deposited data

How the results depend on the processing

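No called member changed sign in any alternative, and none of the 2 genes that are neither ligand nor receptor was called in any. Against 6 ligands called, quantile normalization gave 3 and the replicate block 3 (without IL15, IL16 and IL17C), and leaving out 1 pig gave 3 to 6. Against 6 receptor chains, leaving out 1 pig gave 2 to 5 and the replicate block 4 (without IL10RA and IL17RB). Against 16 pathway partners, quantile normalization gave 10, leaving out 1 pig 10 to 14 and the replicate block 12. Nothing in the labels says that replicate numbers pair the pigs. Deviations of same-numbered pigs correlated at 0.0206, -0.0795 and -0.0724, which with 3 pigs per diet cannot show whether a pairing existed. Over all genes, 4453 were called, against 2772 with the block, 2399 without NC pig 1, 2879 without NC pig 2 and 2936 without HFCF pig 2. Among values that were not called, log2 fold changes turned sign as follows, and the cause was not tested. With median-ratio scaling, quantile normalization and TPM, in that order, IL1R1 was -0.24, -0.054 and -0.14, IL4I1 -0.13, -0.13 and -0.032, and IL6R -0.16, -0.39 and -0.072. IL17D was -0.060 with median-ratio scaling and -0.002 with quantile normalization, and IL25 was -0.30 with quantile normalization. Leaving out 1 pig moved IL6R between -0.10 (without HFCF pig 2) and 0.50, IL17B between -0.62 and 0.07 (without NC pig 3), IL25 between -6e-04 (without NC pig 3) and 0.69, IL11RA between -0.33 and 0.15 (without HFCF pig 1), and IL18BP between -0.86 and 0.45 (without HFCF pig 3), with 0.04 without NC pig 2. With 3 pigs per diet and no read counts, the precision of low members such as IL10, IL27 and IL12RB1 in NC is unknown, and their fold changes move with the pseudocount.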
